A study of Mus musculus with 13 samples.

Results

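Oxidative phosphorylation is carried out in the inner mitochondrial membrane by 5 multi-protein complexes, and the genes described here encode their subunits in the nucleus. A gene was included when a probe set assigned to it alone carried a symbol starting with Ndufa, Ndufb, Ndufc, Ndufs, Ndufv, Sdh, Uqcr, Cox4, Cox5, Cox6, Cox7, Cox8 or Atp5, and the probe set with the highest mean stood for the gene. That rule gave 93 members of 19938 genes, of which 82 were subunit genes and 11 were assembly factors that share a symbol prefix with the subunits. Of the 93 members, 91 were bright enough to be tested. The testis isoform gene Cox7b2 (77 to 117 intensity units over the arrays) and the complex II assembly factor gene Sdhaf4 (115 to 196) were not. The subunits encoded in the mitochondrial genome are not analysed here.

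The samples were whole back skin of C57Bl6 male mice aged 46 days, with follicles in telogen (the phase between bouts of hair growth). Lights were on for 12 h and off for 12 h, standard chow was always available, and skin was taken every 4 h over 48 h, so that ZT (zeitgeber time) counts the hours since lights on. RNA of 3 mice was pooled for each collection and put on 1 array, giving 6 arrays in the dark (ZT14, ZT18 and ZT22, 2 each) and 7 in the light (ZT2 with 3, ZT6 and ZT10 with 2 each). Replicates of a time of day are pools collected on successive days. All groups share strain, sex, age, diet and hair cycle phase, and the groups differ in collection time alone as far as the labels say.

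The medians of the arrays lay between 353.8 and 392.8 intensity units, and their medians over the tested genes differed by at most 0.13 on the log2 scale. The keratinocyte markers Krt5 (14203 to 15571) and Krt10 (13016 to 14944) were bright on every array, so the defining markers of epidermis were present. The 14 skeletal muscle markers were bright too, with a summed intensity of 90323 to 121423 in the dark and 107244 to 131222 in the light, so RNA of muscle is part of these samples. Ucp1, the defining gene of brown fat, stayed between 88 and 161 and was too dim to be tested. The other 4 brown fat markers were bright enough to be tested. They had 937 to 1312 (Cidea), 821 to 1282 (Zic1), 398 to 603 (Lhx8) and 212 to 293 (Otop1). Whether brown fat is part of these samples was not tested. A pair of arrays stood apart by markers of other structures. On the array of hour 46 (ZT22 replicate 2) the hair shaft markers deviated from their own means by 2.11 in log2 on average and the muscle markers by -0.39. On the array of hour 2 (ZT2 replicate 1) the fibroblast markers deviated by -0.41, the macrophage markers by -0.40 and the hair shaft markers by -0.52. Where 1 of these arrays moves a count of members or a log2 difference by over 1.5 times, the value without it is given below. Smaller shifts are not all given. The part of these markers in the results was not tested except where a value without the array or with the muscle level in the model is given. In whole tissue, fewer cells of a type and less RNA per cell cannot be told apart.

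Complex I (the NADH dehydrogenase genes Nduf) and complex II (succinate dehydrogenase, Sdh) pass electrons from metabolites to ubiquinone. Complex III (Uqcr) passes them on to cytochrome c and complex IV (cytochrome c oxidase, Cox) to oxygen. Complexes I, III and IV pump protons, and complex V (ATP synthase, Atp5) uses the proton gradient to make ATP. Most of the subunits are built from genes in the nucleus that are widely expressed, and several subunits of complex IV exist as pairs of genes, one found in most tissues and one in heart and skeletal muscle. In skin, keratinocytes, fibroblasts, fat, glands and muscle all hold mitochondria.

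The promoters of 4 genes of complex IV are shown because they belong to the contrast between muscle isoforms and ubiquitous isoforms that is described further on. Cox7a1 and Cox8b are the heart and muscle forms of subunits 7a and 8. Cox8a and Cox6a1 are ubiquitous forms. Each sequence is the 250 bases before the annotated start of transcription in RefSeq (GRCm38.p6), written 5′ to 3′ on the strand of the gene, and capitals mark the motifs found among the 8 searched. The windows are chr7:30183921-30184170 on the plus strand for Cox7a1, and on the minus strand chr7:140900447-140900696 for Cox8b, chr19:7217617-7217866 for Cox8a and chr5:115348959-115349208 for Cox6a1.
Cox7a1: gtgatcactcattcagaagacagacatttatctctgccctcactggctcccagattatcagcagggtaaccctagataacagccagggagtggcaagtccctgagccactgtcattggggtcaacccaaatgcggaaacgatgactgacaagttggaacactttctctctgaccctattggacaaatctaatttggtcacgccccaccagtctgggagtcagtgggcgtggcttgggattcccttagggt
Cox8b: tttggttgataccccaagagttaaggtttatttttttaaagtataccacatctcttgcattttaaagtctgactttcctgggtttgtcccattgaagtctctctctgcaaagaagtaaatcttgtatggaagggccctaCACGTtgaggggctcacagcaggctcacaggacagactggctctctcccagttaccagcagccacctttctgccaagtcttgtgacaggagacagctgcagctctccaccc
Cox8a: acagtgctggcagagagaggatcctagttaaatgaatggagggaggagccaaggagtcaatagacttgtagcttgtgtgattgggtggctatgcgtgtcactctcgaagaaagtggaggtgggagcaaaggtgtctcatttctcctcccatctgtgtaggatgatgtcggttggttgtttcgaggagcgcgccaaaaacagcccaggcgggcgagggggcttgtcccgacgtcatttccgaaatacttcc
Cox6a1: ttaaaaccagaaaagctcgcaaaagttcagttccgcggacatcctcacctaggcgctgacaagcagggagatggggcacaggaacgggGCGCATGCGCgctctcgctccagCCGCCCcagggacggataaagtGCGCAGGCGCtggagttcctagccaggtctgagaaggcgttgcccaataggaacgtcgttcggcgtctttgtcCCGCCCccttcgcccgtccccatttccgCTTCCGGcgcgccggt
The capitals in Cox6a1 are 2 copies of the palindromic NRF1 motif, which begin 162 and 117 bases before the start, 1 ETS motif (CCGGAAG, here on the opposite strand), which begins 16 bases before it, and 2 copies of the SP1 motif (GGGCGG, both on the opposite strand), which begin 139 and 44 bases before it. NRF1 and the ETS factor GABP are known activators of respiratory chain genes. In Cox8b the capitals are 1 match of ACGTG, the core of the hypoxia response element, on the opposite strand. No motif was found in these letters of Cox7a1 and Cox8a. The longer windows counted below also hold bases after the start. In them Cox8a had 2 ETS motifs, Cox7a1 had 1 match of ACGTG, and Cox8b had 2 matches of ACGTG, including the 1 shown.

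Promoter windows of 300 bases (250 before and 50 after the start) were found for 77 members, 5 of which have several, giving 82 windows. Both strands were searched, and ACGTG is contained in CACGTG, so those matches overlap. The NRF1 motif was in 21 of the 82 member windows (25.6%) and in 4.6% of all 32851 windows. The ETS motif was also in 21 (25.6%), against 8.86% of all windows. The clock E-box CACGTG, bound by the CLOCK and BMAL1 proteins, was in 7 (8.54%), against 7.15% of all windows, and the D-box TTATGTAA in 1 (1.22%), against 0.938%. The ERR motif TCAAGGTCA was in 2 windows (2.44%), against 0.423%. ACGTG was in 20 (24.4%), against 19.6%, the SP1 motif GGGCGG in 38 (46.3%), against 35.7%, and the muscle MEF2 motif in 2 (2.44%), against 3.69%. These are matches of letters, not binding sites.

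The first question was whether the subunit genes follow a 24 h rhythm. A 24 h curve was fitted to each gene over all 13 arrays in log2(intensity + 16), and the fold given is that of the fitted peak over the fitted trough. No member passed an adjusted p of 0.05 (limma F test, Benjamini-Hochberg over all genes tested), in a comparison where 2.13% of the 14953 genes tested were called. At an unadjusted p under 0.05 there were 15 members (16.5%), against 18.6% of all genes, a share near the background. What the members had in common was the time of the fitted peak. It fell between ZT0 and ZT7, from lights on to the middle of the light phase, in 78 of 91 (85.7%), against 35.8% of all genes. This window was not part of the planned 24 h test and lies where the members' peaks gather. The share therefore describes these data and is not a test. Members were measured on the same arrays and are not independent of each other.

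The sizes were small. The fitted peak-to-trough difference had a median of 0.22 in log2 (1.16-fold) over the members and 0.19 (1.14-fold) over all genes tested. The members ran from 0.04 in Cox8a to 0.69 in Ndufa4l2.

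**Figure D1:**
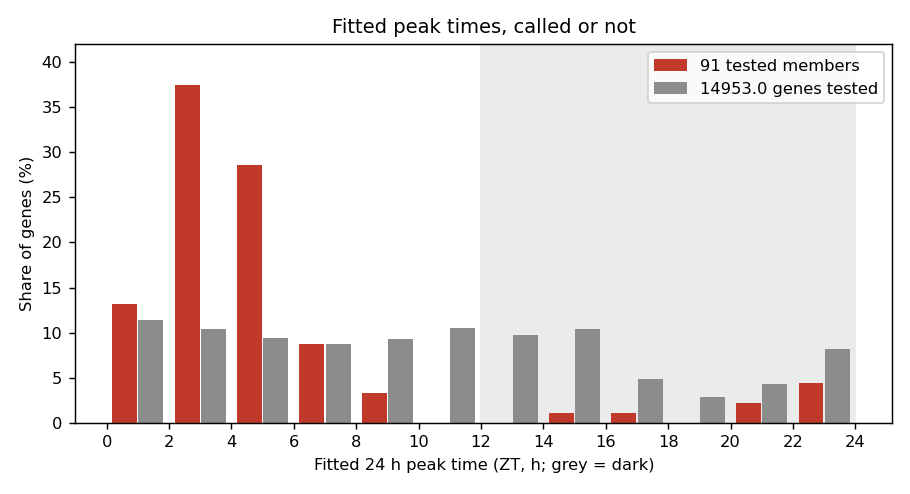
Share of genes by fitted peak time in 2 h bins (x axis, hours after lights on; y axis, percent of genes), for the 91 tested members beside the 14953 genes tested. The members gather between ZT2 and ZT6, with 34 and 26 members in those 2 bins, and no member peaks between ZT10 and ZT14.

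By array, 80 of 91 members were above their own mean at hour 2, 74 at hour 6, 31 at hour 10, 33 at hour 14, 13 at hour 18 and 51 at hour 22. On the next day the counts were 69 at hour 26, 32 at hour 30, 27 at hour 34, 26 at hour 38, 23 at hour 42 and 8 at hour 46, and 78 members were above at hour 50. The arrays of ZT2 thus held the members high on all 3 days, while ZT6 and ZT22 differed between the days. The share of all genes above their mean lay between 39.5% and 63.4% on these arrays.

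**Figure D2:**
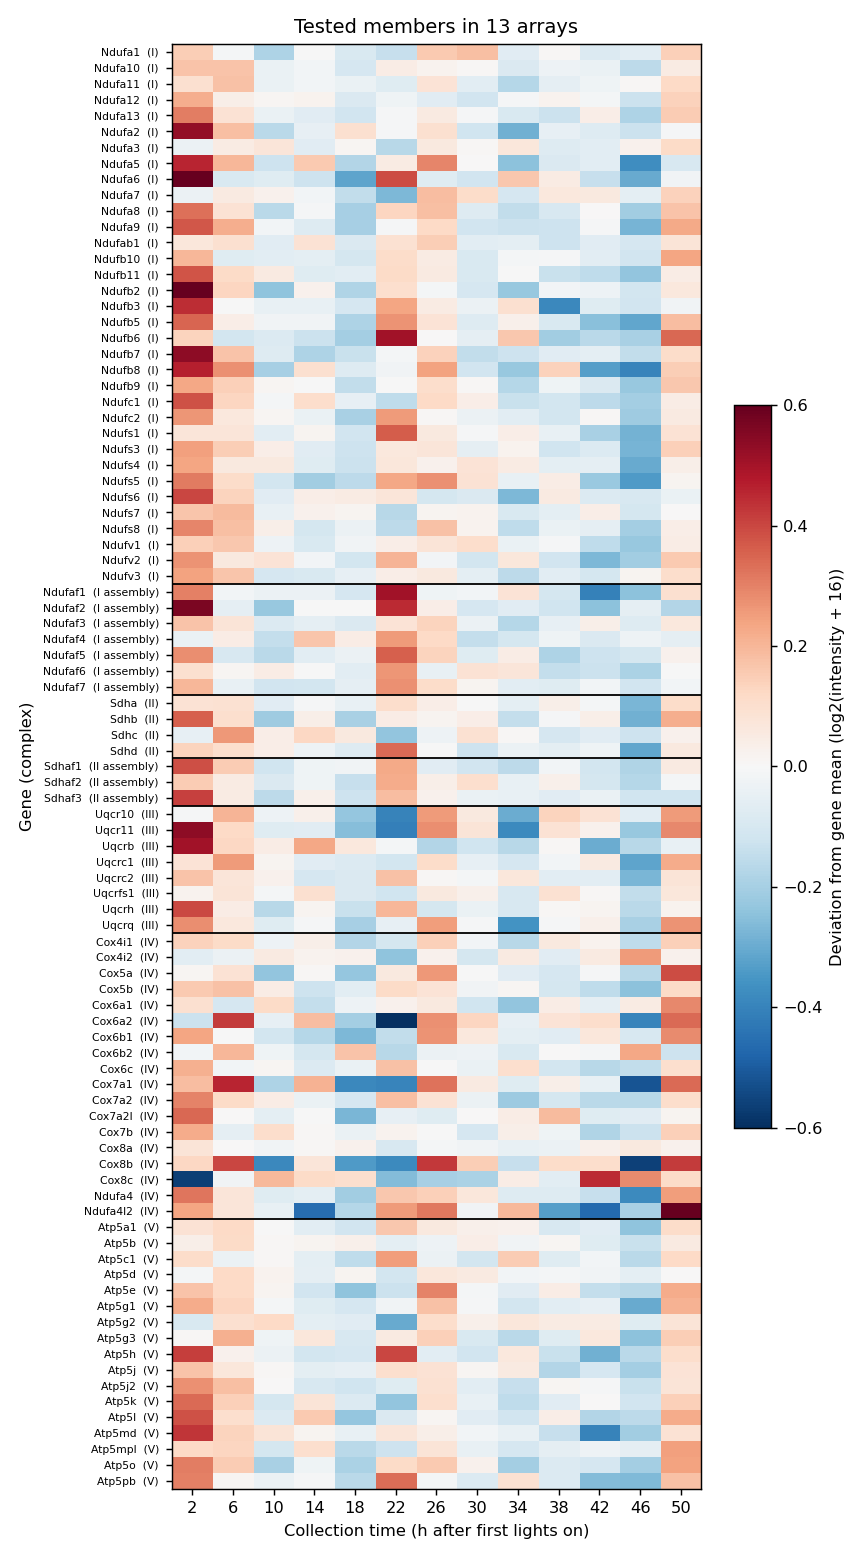
Deviation of each tested member from its own mean in log2 (colour) on the 13 arrays in order of collection (x axis, hours after the first lights on), with members grouped by complex (y axis). The columns of hours 2, 26 and 50 are mostly above 0 and the column of hour 46 is mostly below, with 8 of 91 members above their mean.

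The mean over the 34 subunit genes of complex I had a fitted peak-to-trough difference of 0.21 in log2 and a peak at ZT3.40. Its deviation was 0.28 at hour 2, 0.08 at hour 26 and 0.09 at hour 50, and was lowest at hour 46, at -0.18. The spread between replicates of a time of day was 0.10 (SD), about the size of most of these deviations. The 2 subunits with the smallest p were Ndufv3, an accessory subunit of the arm that oxidises NADH, and Ndufb7, an accessory subunit of the membrane arm.

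Ndufv3 had intensities of 2292, 2178, 1802, 1817, 1873 and 1994 at hours 2 to 22, then 2018, 1856, 1734, 1851, 1798 and 1956 at hours 26 to 46, and 2085 at hour 50. Its 3 ZT2 arrays were among the 4 highest, and the fitted rhythm was 0.25 ± 0.07 in log2 (SE, 1.19-fold, peak at ZT1.75, limma adjusted p = 0.175). Ndufb7 had 831, 626 and 614 at ZT2, 641 and 512 at ZT6, and 498 to 563 at the other times of day. Its fit was 0.34 ± 0.12 (1.27-fold, peak at ZT2.56, adjusted p = 0.252), with hour 2 far above the rest, and 0.22 without that array (adjusted p = 0.336). In 33 of the 34 complex I subunit genes the peak lay between ZT0 and ZT7. The exception was Ndufs6, with a peak at ZT23.84.

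The 7 assembly factors of complex I, which help to build the complex and are not part of it, had a different course from the subunits. Their mean was highest at hour 22, at 0.31, and at hour 2, at 0.22, and the fitted peak was at ZT0.85, with a replicate SD of 0.14. Hour 46, the same time of day on the second day, was at -0.12. Ndufaf5, which hydroxylates a core subunit during assembly, had 290 units at hour 22 and 206 at hour 46, against 194 to 273 on all other arrays (0.27 ± 0.11, 1.21-fold, adjusted p = 0.296). Ndufaf3, which acts early in assembly, had a fitted rhythm of 0.19 ± 0.07 (1.14-fold, peak at ZT1.05, adjusted p = 0.266). The difference between assembly factors and subunits was not tested.

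Complex II has 4 genes, and their mean rhythm was 0.13 (0.08 after quantile normalization) with a peak at ZT4.91 and a replicate SD of 0.10. Sdhb, the iron-sulfur subunit, had 1416 to 1788 units in the dark (median 1750), against 1492 to 2230 in the light (median 1781), and its fit was 0.23 in log2 (1.17-fold, adjusted p = 0.439), with 0.15 without the array of hour 2. Sdhc, a membrane anchor, was highest at hour 6 (5437) and lowest at hour 22 (3857), with a later peak at ZT8.51 (0.22 ± 0.09, 1.17-fold, adjusted p = 0.308). The 3 tested assembly factors of complex II had a mean rhythm of 0.16 with a peak at ZT1.91, and of 0.08 without the array of hour 2.

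Complex III has 8 members, with a mean rhythm of 0.18, a peak at ZT4.15 and a replicate SD of 0.08. Uqcr11, the smallest accessory subunit, had 1759, 1472 and 1481 units at ZT2 and 906 and 1030 at ZT22. Its fitted rhythm was 0.39 ± 0.18 (1.31-fold, peak at ZT3.79, adjusted p = 0.364). Uqcrq, another small subunit, showed 1873, 1837 and 1865 at ZT2, the 3 highest of its 13 values, and 1.23-fold (0.29 ± 0.12, adjusted p = 0.317).

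Complex IV had 18 tested members, a mean rhythm of 0.19 with a peak at ZT4.40, and the smallest replicate SD of the complexes, 0.05. Ndufa4l2 had the largest fitted rhythm of all members. It encodes a relative of the complex IV subunit NDUFA4 that is induced by hypoxia through HIF-1 and lowers respiratory chain activity in cell culture. Its intensities were 1933, 1728, 1592, 1190, 1456 and 1960 at hours 2 to 22, then 2045, 1615, 1879, 1303, 1182 and 1431 at hours 26 to 46, and 2511 at hour 50. All dark arrays but that of hour 22 were below every light array, so the phases overlapped through that array alone. The fit was 0.69 ± 0.15 in log2 (SE, 1.61-fold, peak at ZT3.28), with a limma p of 0.00136 and an adjusted p of 0.0572, just above the threshold. The adjusted p ranged to either side of it: it was 0.0481 with the dimmest 50% of genes left out, 0.0465 without the array of hour 34 and 0.0409 without that of hour 46, and above 0.05 in the other 19 alternatives.

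Cox6b1, the subunit that faces the space between the membranes, had 4441, 4545 and 4594 units at ZT2, and 3125 and 3945 at ZT18. The 3 ZT2 arrays were its 3 highest, and the fit was 0.34 ± 0.10 (1.27-fold, peak at ZT3.12, adjusted p = 0.179). Cox8a, the ubiquitous subunit 8, was the flattest member, at 6413 to 7218 over all arrays, with a fitted rhythm of 0.04 ± 0.06. Of the 13 members that peak outside ZT0 to ZT7, 6 belong to complex IV, where 12 of 18 peak inside.

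Complex V had 17 members with a mean rhythm of 0.20, a peak at ZT4.21 and a replicate SD of 0.07. Atp5o encodes the stalk subunit that gives the enzyme its sensitivity to oligomycin. It had 2600, 2333, 1831, 2057, 1837 and 2267 units at hours 2 to 22, then 2337, 2130, 1818, 1978, 1955 and 1820 at hours 26 to 46, and 2476 at hour 50. The 3 ZT2 arrays were its highest 3, and the fit was 0.35 ± 0.10 (1.27-fold, peak at ZT2.50, adjusted p = 0.165). Atp5e, the epsilon subunit of the rotating stalk, had 1153, 1262 and 1197 at ZT2, 862 and 926 at ZT18, and 0.33 ± 0.10 (1.26-fold, peak at ZT4.63, adjusted p = 0.167).

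**Figure D3:**
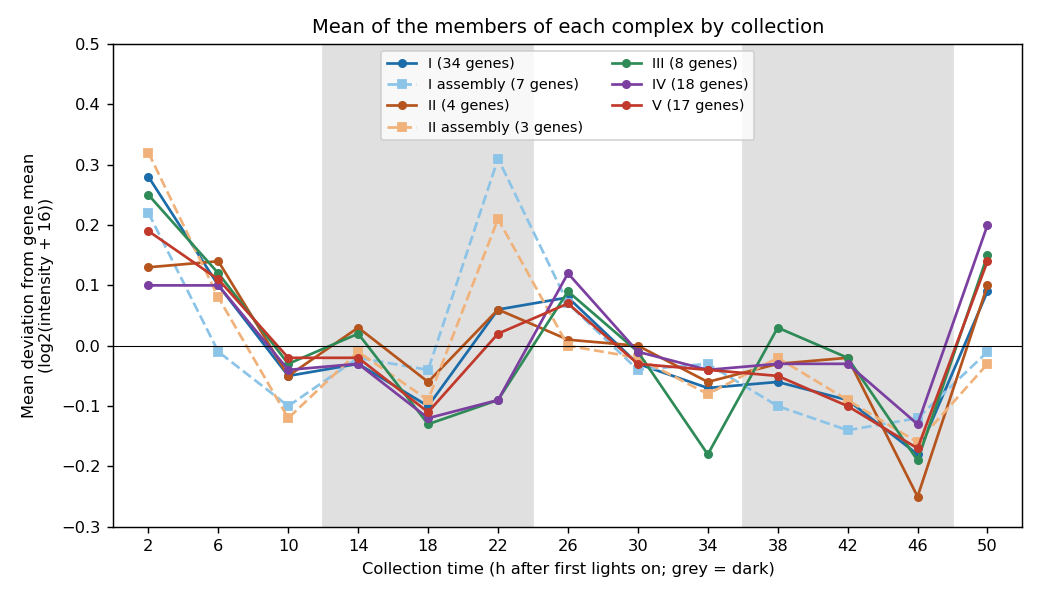
Mean deviation of the tested members of each complex from their own means in log2 (y axis) on each of the 13 arrays by hour of collection (x axis), with shading for the dark phases. Complexes I, III, IV and V are above 0 at hours 2, 26 and 50, complex II is near 0 at hour 26 (0.01), and the means of all complexes are below 0 at hour 46. The complex I assembly factors reach 0.31 at hour 22 and are at -0.01 at hour 50.

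**Figure D4:**
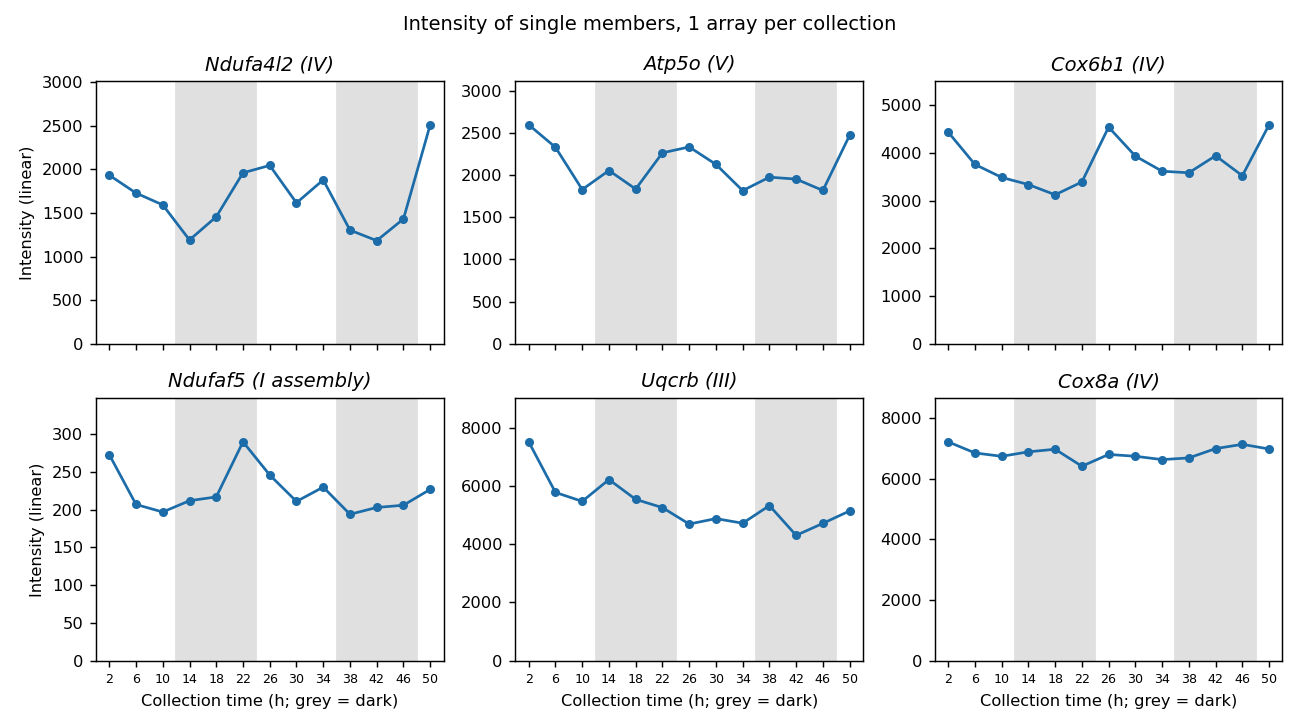
Intensity of 6 members (y axis, linear units, from 0) on the 13 arrays by hour of collection (x axis), each point 1 array, with shading for the dark phases, for Ndufa4l2, Atp5o, Cox6b1, Ndufaf5, Uqcrb and Cox8a. Ndufa4l2 spans 1182 to 2511 and Cox8a stays within 6413 to 7218.

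The count of members at an unadjusted p under 0.05 moved with single arrays. Without the array of hour 2 it was 6 in place of 15, as it was without hour 6, 26 or 50. Without hour 2 the median peak-to-trough difference was 0.18 in place of 0.22, and 71 members peaked between ZT0 and ZT7. Without the array of hour 46 there were 26 members under it. With the level of the muscle markers in the model there were 8, the median was 0.18, and 62 peaked between ZT0 and ZT7.

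The second comparison set the dark phase against the light phase. The members were slightly lower in the dark: the mean over all members deviated by -0.06 (SD 0.07, 6 arrays) in the dark and 0.05 (SD 0.10, 7 arrays) in the light. No member passed an adjusted p of 0.05 (limma), where 0.0201% of all genes, 3 in number, were called. The difference was below 0 for 85 of 91 members (93.4%), against 59.8% of all genes. Its median was -0.12 in log2 (0.921-fold), against -0.02 (0.984-fold) over all genes, and it ran from -0.42 to 0.19. At an unadjusted p under 0.05 there were 21 members (23.1%), all lower in the dark, against 6.25% of all genes lower in the dark and 8.28% in either direction. No member had every dark array below every light array, and 0.241% of all genes did.

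By complex, the difference was below 0 in 33 of 34 subunits of complex I, 5 of 7 of its assembly factors, all 4 of complex II and all 3 of its assembly factors, all 8 of complex III, 15 of 18 of complex IV and all 17 of complex V. The 6 members above 0 were Ndufs6, the assembly factors Ndufaf2 and Ndufaf4 (0.10), and the tissue isoforms Cox4i2, Cox6b2 and Cox8c (0.19), of which Cox8c is the testis form of subunit 8. Cox8c had 246 to 411 units in the dark (median 322), against 196 to 343 in the light (median 293), and these overlapped.

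The 5 members with the smallest p belonged to complexes I, IV and V. Atp5e had 862 to 1055 units in the dark (median 930), against 974 to 1262 in the light (median 1112). Only 1 dark array, hour 38 at 1055, reached into the light range, and the difference was -0.23 ± 0.07 (SE, limma adjusted p = 0.437). Ndufa4l2 had 1182 to 1960 in the dark (median 1367), against 1592 to 2511 in the light (median 1879), a difference of -0.42 ± 0.12 (adjusted p = 0.437). The overlap came from hour 22.

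Ndufs3, a core subunit of the arm that reduces ubiquinone, had 1949 to 2470 in the dark (median 2204), against 2275 to 2804 in the light (median 2487). Its difference was -0.19 ± 0.06 (adjusted p = 0.47). Cox5b, the zinc-binding subunit of complex IV, had 3523 to 4524 in the dark (median 3864), against 4125 to 4725 in the light (median 4423), and a difference of -0.18 ± 0.06 (adjusted p = 0.476). For both, the dark array of hour 22 was the highest of its phase. Ndufs4, an accessory subunit needed for a stable complex I, had 2169 to 2806 in the dark (median 2560), against 2729 to 3160 in the light (median 2790), and -0.17 ± 0.06 (adjusted p = 0.513).

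The 14 muscle markers moved the same way in this comparison. All 14 were lower in the dark (limma), against 59.8% of all genes, with a median difference of -0.16 in log2. None had an adjusted p under 0.05 and 4 had an unadjusted one, against 8.28% of all genes. Their 24 h timing differed from that of the members. The fitted peak lay between ZT0 and ZT7 in 4 of the 14, against 78 of 91 members and 35.8% of all genes. A separate list of 6 dimmer slow muscle markers went the other way. Of these, 0 were below 0 and 0 had an unadjusted p under 0.05, and the median was 0.05. Their mean deviated by 0.09 at hour 18. Over the dark arrays it ran from -0.14 at hour 38 to 0.17 at hour 46, and it was highest at hour 34, in the light, at 0.38. With the level of the 14 markers in the model, 1 member in place of 21 had an unadjusted p under 0.05. In that model 0 of all genes were called at an adjusted p under 0.05, in place of 3. The median difference of the members was then -0.06, and 82 of 91 members were below 0, where 85 were without the covariate. Of single arrays, leaving out hour 46 gave 10 members at an unadjusted p under 0.05, hour 6 gave 12, and hour 22, on which many members were high, gave 34. Over all genes, the calls at an adjusted p under 0.05 were 3, 3 and 26 in these settings. The share of all genes at an unadjusted p is not given for them. A shift of the members and one of all genes therefore cannot be told apart by these counts. The median of the members stayed between -0.14 and -0.09 with any 1 array left out.

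The third comparison set the second day (hours 26 to 46) against the first (hours 2 to 22), with the time of day as a block, since each of 6 times was collected once on each day. The members had a median log2 difference of -0.08 (0.946-fold), lower on the second day, against 0.01 over all genes. The difference was below 0 for 75 of 91 (82.4%), against 47% of all genes. No member passed an adjusted p of 0.05 (limma), and 0% of all genes did. At an unadjusted p under 0.05 there were 12 members (13.2%), all lower on day 2, against 3.46% of all genes lower and 6.53% in either direction. Batches of preparation are not given in the labels, so a difference between days and one between batches cannot be told apart.

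The difference was uneven over the day. It was -0.14 at ZT2, -0.11 at ZT6, -0.02 at ZT10, -0.03 at ZT14, 0.04 at ZT18 and -0.23 at ZT22 (medians over 91 members), with 69, 80, 53, 55, 34 and 72 of 91 members lower on day 2, where 42.3%, 48.5%, 38.7%, 55.2%, 52% and 54.5% of all genes were. At ZT14 and ZT18 the members' share was near or below that of all genes. The arrays of hours 2 and 46 stand in the pairs of ZT2 and ZT22. Without hour 2 (and so without that pair) the median was -0.07, and without hour 46, or without hour 22 of the same pair, it was -0.05.

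Uqcrb, the subunit of complex III that binds ubiquinone, had the smallest p of the members. Its intensities were 4692, 4879, 4720, 5326, 4304 and 4715 on day 2, against 7515, 5777, 5471, 6219, 5539 and 5256 on day 1, lower in 6 of 6 pairs. The difference was -0.31 ± 0.08 (SE, limma adjusted p = 0.603). Hour 2, at 7515, was the highest, and hour 50 of the third day, at 5143, lay within the range of day 2. All of the day 2 values but that of ZT14 (5326) were below all of the day 1 values.

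Atp5md, a small membrane subunit that takes part in dimers of ATP synthase, had 3654, 3525, 3458, 3234, 2693 and 3081 on day 2, against 4807, 3910, 3763, 3603, 3460 and 3745 on day 1. It was lower in 6 of 6 pairs, by -0.24 ± 0.06 in log2 (adjusted p = 0.603). Cox7a2, the ubiquitous form of subunit 7a, was at 1570 to 1979 outside the arrays of hours 2 (2249) and 22 (2071), and differed by -0.18 ± 0.06 (6 of 6 pairs, adjusted p = 0.603). Ndufv2, a core iron-sulfur subunit, gave -0.19 ± 0.06 and Ndufb11, an accessory subunit of the membrane arm, -0.18 ± 0.06, both in 6 of 6 pairs. Ndufa2, an accessory subunit of the peripheral arm, gave -0.19 ± 0.07 in 5 of 6, each of the 3 with a limma adjusted p of 0.603. In all, 8 members (8.79%) were lower in all 6 pairs, against 2.14% of all genes, and the other 3 beside those named were Atp5b, Cox7b and Ndufc1. Cox6b1 (0.11 ± 0.06, adjusted p = 0.603) and the complex I accessory subunit gene Ndufa1 (0.07 ± 0.05, adjusted p = 0.615) were higher on day 2 in all 6 pairs. The share of all genes higher in all 6 pairs is not given, so this does not set them apart from other genes.

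The isoform genes divided by their relation to muscle. The mean log2 level of 14 skeletal muscle markers (among them Acta1, Ckm and Myh4) was compared over the 13 arrays with 17 isoform genes of complexes IV and V. The marker level was lowest at hours 46 (-0.39) and 18 (-0.27) and highest at hours 6 (0.27) and 50 (0.25). Of the 17 genes, 6 correlated with it at an adjusted p under 0.05 (permutation test with 100000 permutations, Benjamini-Hochberg over 17). The permutations treat the 13 arrays as exchangeable, although they are in order of time. A course over the day that a gene shares with the markers therefore enters these p-values. The 3 muscle isoforms had the highest correlations.

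Cox7a1, the muscle form of subunit 7a, had 2779, 3358, 2146, 2826, 1867 and 1853 units at hours 2 to 22, then 3065, 2535, 2319, 2500, 2364 and 1699 at hours 26 to 46, and 3095 at hour 50. It followed the markers with Pearson's r = 0.94 and Spearman's rho = 0.93 (permutation p = 1e-05 for r, the smallest that these permutations can give, adjusted p = 8.5e-05). Without the 2 arrays farthest from the median of the markers, hours 18 and 46, r was 0.90, and it was 0.93 on day 1 and 0.97 on day 2. Cox7a2, its ubiquitous counterpart, had r = 0.30 (rho = 0.26, permutation p = 0.326, adjusted p = 0.396).

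Cox8b, the muscle form of subunit 8, had 3678, 4458, 2581, 3544, 2662 and 2586 units at hours 2 to 22, then 4535, 3738, 3064, 3647, 3630 and 2281 at hours 26 to 46, and 4525 at hour 50. Its r was 0.92 (rho = 0.84, permutation p = 1e-05, adjusted p = 8.5e-05), and 0.89 without hours 18 and 46. Cox8a, its counterpart, had r = -0.16 (rho = -0.10, permutation p = 0.602, adjusted p = 0.639), with r = 0.30 without hours 18 and 46 and r = 0.11 after quantile normalization. Cox6a2, the muscle form of subunit 6a, lay between 3044 (hour 22) and 6701 (hour 6), with r = 0.83 (rho = 0.95, permutation p = 0.00053, adjusted p = 0.003) and 0.85 without the 2 arrays. Cox6a1, its counterpart, lay between 2639 and 3808 with r = -0.00 (rho = -0.12, permutation p = 0.988, adjusted p = 0.988). The difference in r between the forms of a pair was not tested.

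**Figure D5:**
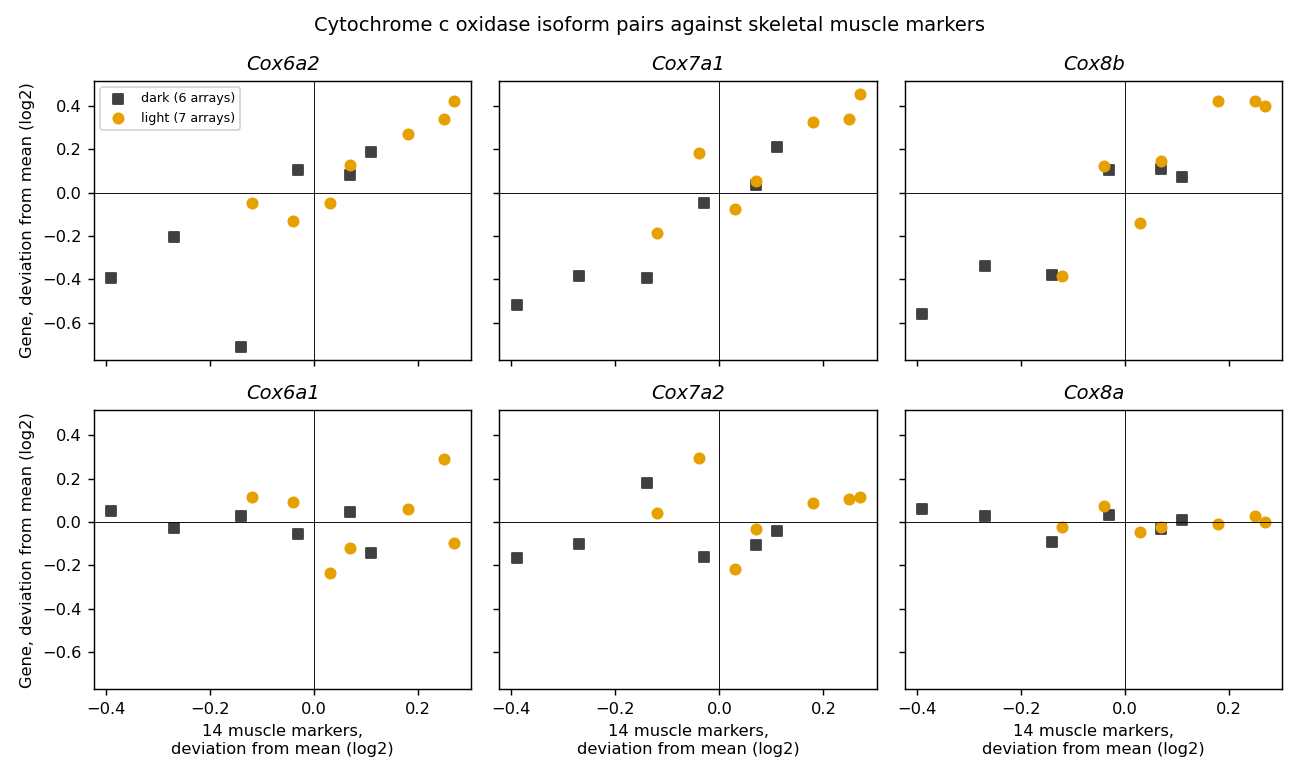
Log2 level of Cox6a2, Cox7a1 and Cox8b (top row) and of Cox6a1, Cox7a2 and Cox8a (bottom row) against the mean log2 level of 14 skeletal muscle markers (x axis), each point 1 of 13 arrays, with squares for the dark and circles for the light. The top row follows the markers with r of 0.83, 0.94 and 0.92, and the bottom row has r of -0.00, 0.30 and -0.16.

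The other genes that correlated were Cox4i1, the ubiquitous form of subunit 4 (r = 0.77, rho = 0.76, permutation p = 0.00198, adjusted p = 0.00841, r = 0.62 without the 2 arrays), and 2 of the 3 genes that encode the same c-ring subunit of ATP synthase. Atp5g3 had r = 0.73 (rho = 0.73, adjusted permutation p = 0.0144) and 0.53 without the 2 arrays. Atp5g1 had r = 0.70 (adjusted permutation p = 0.0193), but rho was 0.49 (adjusted p = 0.187), and r was 0.45 without the 2 arrays, so it rests in part on them. Atp5g2 had r = 0.53 (rho = 0.58, adjusted permutation p = 0.121). Ndufa4l2, with the largest fitted rhythm, had r = 0.34 (rho = 0.26, adjusted permutation p = 0.378), and its counterpart Ndufa4 had r = 0.62 (rho = 0.46, adjusted permutation p = 0.0551), which was 0.19 without the 2 arrays and so rests on them.

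Members that are known from other tissues did not follow the markers at this threshold. Cox4i2, the lung form of subunit 4 (590 to 839 units, r = -0.32), Cox6b2, a testis form (306 to 409 units, r = -0.38), and Cox8c (r = -0.22) had adjusted permutation p values of 0.378, 0.346 and 0.53. Without hours 18 and 46 their r turned positive, to 0.31, 0.39 and 0.07, and so these values rest on those arrays. Cox6b1 had r = 0.56 (adjusted permutation p = 0.0952). Cox7a2l, a factor that joins complexes III and IV into supercomplexes, had r = 0.32 (adjusted permutation p = 0.378). The median r over the members was 0.44, and over all genes tested 0.03. By complex it was 0.45 for complex I, 0.05 for its assembly factors, 0.57 for complex II, 0.19 for its assembly factors, 0.56 for complex III, 0.33 for complex IV and 0.53 for complex V, given as a description across genes that share the arrays.

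The fitted peaks of the muscle isoforms were later than that of the mean over all members (ZT3.64), and their fitted rhythms were larger than the median of the members. Neither trait was theirs alone. Sdhc (ZT8.51), Uqcrfs1 (ZT8.24) and Atp5g2 (ZT8.61) peaked later than any of them, and Ndufa4l2 had a larger rhythm (1.61-fold). Errors of the peak times are not given. Cox7a1 was fitted at 1.42-fold with a peak at ZT6.32 (adjusted p = 0.287), Cox8b at 1.36-fold at ZT5.41 (adjusted p = 0.406) and Cox6a2 at 1.39-fold at ZT7.92 (adjusted p = 0.342). For Cox7a1 the dark values were 1699 to 2826 (median 2116), against 2146 to 3358 in the light (median 2779), and the difference was -0.34 ± 0.13 (limma adjusted p = 0.529). The ubiquitous Cox6a1 was fitted at 1.14-fold with a peak at ZT23.99 (adjusted p = 0.42), and its dark range of 2822 to 3221 lay inside its light range of 2639 to 3808. None of these rhythms passed the threshold.

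Other mitochondrial genes outside the symbol prefixes were described by lists, some of which peaked mostly in the early light phase and some of which did not. The shares over all genes tested stand beside the counts of every list. In the 24 h test 2.13% were called, 18.6% had an unadjusted p under 0.05 (limma) and 35.8% peaked between ZT0 and ZT7. In dark minus light 59.8% were below 0. Of 41 measured electron carriers and assembly factors, none was called for a 24 h rhythm and 5 had an unadjusted p under 0.05 (limma), 35 peaked between ZT0 and ZT7, and 38 were below 0 in dark minus light. Uqcc2, an assembly factor of complex III, had the smallest p of these, 1.34-fold with a peak at ZT23.93 (adjusted p = 0.0564), and passed the threshold in 6 of 22 alternatives (lowest adjusted p = 0.0169, without hour 46). Cox18, which inserts a subunit into complex IV, was at 1.25-fold (peak at ZT22.36, adjusted p = 0.129) and passed without hour 46 (adjusted p = 0.038). The 16 measured genes of the citric acid cycle and pyruvate dehydrogenase had 0 calls and 1 unadjusted p under 0.05, and all 16 were below 0 in dark minus light. Dlat, a subunit of pyruvate dehydrogenase, was at 1.18-fold (0.24 in log2, 0.13 with the muscle level in the model) and Idh3g, a subunit of isocitrate dehydrogenase, at 1.13-fold.

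Of the 76 tested mitochondrial ribosomal protein genes, which make the proteins encoded in mitochondrial DNA, 0 were called. At an unadjusted p under 0.05 (limma) there were 18, against 18.6% of all genes. Their peak lay between ZT0 and ZT7 in 59, against 35.8% of all genes, and their mean was highest at hours 2 (0.24) and 22 (0.15). Mrpl54 was fitted at 1.48-fold with a peak at ZT1.57 (adjusted p = 0.0535, and under 0.05 in 6 of 22 alternatives) and Mrpl11 at 1.29-fold with a peak at ZT0.71 (adjusted p = 0.112). Among 15 tested regulators of mitochondrial biogenesis, 0 were called, 2 had an unadjusted p under 0.05, and 7 peaked between ZT0 and ZT7. Ppargc1a, the coactivator PGC-1α that drives respiratory genes, had 606 to 1005 units and 1.39-fold (0.48 in log2, peak at ZT6.64, adjusted p = 0.135), and 0.24 in log2 with the muscle level in the model (adjusted p = 0.452). Ppara, a receptor that controls fatty acid oxidation, had 1.48-fold with a peak at ZT11.28 (adjusted p = 0.199).

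The only gene called among these lists was Ucp3, the uncoupling protein of skeletal muscle, 1 of 5 tested carriers and uncoupling proteins, of which 2 peaked between ZT0 and ZT7. It had 382 to 812 units and a rhythm of 0.82 ± 0.16 in log2 (1.77-fold, peak at ZT8.19, limma adjusted p = 0.0425). With the muscle marker level in the model its rhythm was 0.55 (adjusted p = 0.169), and the call was lost in 14 of 22 alternatives. Slc25a3, the phosphate carrier that feeds ATP synthase, was at 1.15-fold (adjusted p = 0.221).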

How the data were processed

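Each array carries RNA of 1 pool of mice. The deposited values are probe set intensities on a linear scale, and Expression Console 1.1.1 and PLIER 2.0 are named per the submitters' processing notes. How the arrays were normalized to each other, and the genome build, are not stated in the labels or files. The limma p-values measure the scatter left by each model, with each pool as 1 value. In dark minus light this scatter also holds differences between times of day within a phase. In the 24 h test it also holds departures from the curve and differences between days.

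Of 35557 probe sets, 21789 with 1 gene in the platform annotation gave 19938 genes, 999 of them with several probe sets, where the highest mean was used (18 members; in 17 all probe sets had the same sign in dark minus light, and the exception was Sdhaf4). Values were taken as log2(intensity + 16), and the dimmest 25% of genes were left out, which left 14953. Models were fitted in R 4.3.3 with limma 3.58.1 (lmFit, eBayes) over all genes, with Benjamini-Hochberg adjustment and a threshold of 0.05: a 24 h cosine and sine (10 residual degrees of freedom), dark minus light, and day 2 minus day 1 with time of day as a block (12 arrays, 5 residual degrees of freedom). Times of day pair the arrays of the 2 days by design. Folds of dim genes are understated by the offset of 16. The scripts were tested on simulated data.

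Genes were named by a rule: the 2 smallest p of the 24 h test per complex and per pathway list, 5 of dark minus light, 6 of day 2 minus day 1, and 17 isoform genes. Ndufa1, Ndufs6, Ndufaf2, Ndufaf4, Atp5b, Cox7b and Ndufc1 were named after their values were seen. The members and lists were chosen with earlier results of these data known. Alternatives covered the offset (1 and 64), the filter, quantile normalization, arrays shifted to 1 median, the mean of all probe sets, each array left out, the muscle marker level, and the day as a block. Promoters are from RefSeq (GRCm38.p6), and all 93 members were found in the RefSeq gene table. Figures were drawn with matplotlib 3.10.9.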

Additional observations from a re-analysis of the deposited data

Results flagged for a closer look

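In 10 of 86 groups of arrays examined, the farthest array stood apart from the others of its phase by more than Dixon's 95% limit, which chance alone gives in about 1 in 20 groups. The value given is the gap to the nearest array divided by the range of the group. ZT22 replicate 1 (hour 22) was such an array in the dark for the mean of the complex I assembly factors (0.727, at 0.31 in a group from -0.14 to 0.31), Ndufaf5 (0.720, at 290 units in 194 to 290) and Cox7a2 (0.641, at 2071 in 1629 to 2071), each at the high end, and for Atp5g2 (0.643, at 4867 in 4867 to 6223) at the low end. ZT2 replicate 1 (hour 2) was one in the light for Ndufs4 (0.729, at 3160 in 2729 to 3160), Atp5md (0.627, at 4807 in 3458 to 4807) and Cox7a2l (0.712, at 1142 in 851 to 1142), high, and for Atp5g2 (0.569, at 5631 in 5631 to 6533), low. Cox6b2 had a high light array at ZT6 replicate 1 (0.672, at 399 in 316 to 399). Atp5g1 had a low dark array at ZT22 replicate 2 (0.716, at 6231 in 6231 to 7584).

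The arrays of hours 22 and 2 were thus far from the others for several members in both directions. On hour 2 the fibroblast, macrophage and hair shaft markers were low, and on hour 46 the hair shaft markers were high and the muscle markers low, with values as given above. Their part in these single values was not tested.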

How the results depend on the processing

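No member was called in dark minus light or between days under any alternative run, and the median differences kept their sign, from -0.14 to -0.06 for dark minus light and from -0.11 to -0.05 for the days. The 24 h median lay between 0.18 and 0.24. The 24 h test called 1 member, Ndufa4l2, with the dimmest 50% of genes left out, and 0 to 1 with single arrays left out, 1 without ZT10 replicate 2 or ZT22 replicate 2. The correlation of Cox8a with the muscle markers turned to 0.11 after quantile normalization. Counts at an unadjusted p under 0.05 moved most: in the 24 h test, 15 members became 6 without ZT2 replicate 1, ZT6 replicate 1, ZT2 replicate 2 or ZT2 replicate 3, 9 without ZT18 replicate 1 or ZT14 replicate 2, 26 without ZT22 replicate 2, and 8 with the muscle level. In dark minus light, 21 became 13 with arrays shifted to 1 median, 12 without ZT6 replicate 1, 10 without ZT22 replicate 2, 34 without ZT22 replicate 1 and 1 with the muscle level. Between days, 12 became 7 without ZT6 replicate 1 or 2. The shares of all genes at an unadjusted p are not given for these alternatives. With the day of collection as a replicate block, the 24 h test called 0 members (12 unadjusted) and dark minus light 0 (14 unadjusted), and the day test on a 24 h curve with no replicate block called 0 (10 unadjusted). Over all genes, 24 h calls ranged from 128 to 422, and the 3 dark minus light calls from 0 (muscle level) to 26 (without ZT22 replicate 1), with 6 without ZT2 replicate 1 and 1 with the dimmest 50% left out or without ZT18 replicate 2. The day as a block and hour 50 left out could not be applied to the day test, which already holds the day and leaves that array out. The cause of these shifts was not tested. Precision is limited by the 13 arrays, and 2 dim members could not be tested.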
